A study of Mus musculus with 6 samples.

Results

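Cilia are hair-like projections built on a cylinder of microtubules called the axoneme, and the genes that build and move them were examined in mouse embryonic lung. The genes were chosen by symbol. Those beginning Ift, Bbs, Cfap, Dnah, Dnai, Dnal, Tekt or Rsph followed directly by a digit were taken, with Foxj1, Rfx2, Rfx3, Ccno and Efcab3 added. Of 90 symbols that met this rule in the gene annotation used, 57 were among the 14162 genes of the expression table. These 57 are called the cilium genes here. The other 33 had no row and were not analysed here, among them 18 Cfap symbols (such as Cfap43 and Cfap53), 7 Dnah symbols (such as Dnah5), Rsph1, Rsph4a, Tekt3, Tekt4 and Tekt5. All 8 Bbs symbols and 14 of 15 Ift symbols had a row, against 13 of 31 for Cfap, 9 of 16 for Dnah, 4 of 8 for Rsph, 2 of 5 for Tekt and 2 of 2 for Dnal.

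Total RNA of whole, unsorted lungs at E12.5, in mid-gestation, was sequenced in 6 libraries. The 3 Dnmt1KO libraries, labelled ShhCre-Dnmt1KO, came from embryos with a deletion of Dnmt1 by Cre recombinase under control of Shh, a gene active in the endoderm that forms the airway epithelium. The 3 WT libraries came from littermates labelled wild-type. Dnmt1 encodes the enzyme that copies DNA methylation onto new strands at replication. No Cre is named for the littermates, so an effect of the Cre at Shh and one of losing Dnmt1 cannot be told apart. The labels give no embryo for each library, so p-values measure the spread between these libraries. That spread may be technical, apart from the difference in sex of Dnmt1KO replicate 1 given below. In such whole-tissue RNA, fewer cells of a type and less RNA per cell cannot be told apart, and mesenchyme, blood and vessels outside the Cre lineage contribute to every value.

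Most embryonic cells carry a single primary cilium, which senses signals such as Hedgehog and does not beat. Intraflagellar transport (Ift) proteins form the trains that carry cargo along the axoneme, and the Bbs proteins form or assemble the BBSome, an adaptor that moves membrane proteins out of the cilium. Multiciliated cells of the mature airway carry many motile cilia, whose beating needs dynein heavy chains (Dnah), radial spokes (Rsph), tektins (Tekt) and many cilium and flagellum associated proteins (Cfap). Those cells differentiate in the airway later than this stage, under Foxj1 and the Rfx factors, which bind a promoter element named the X-box. Sperm flagella use much of the same machinery.

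Because the libraries differ in a gene for DNA methylation, the promoters are shown first. They came from RefSeq on the build GRCm38.p6 as 300-base windows, from 250 bases before to 50 bases after each start, matched by symbol for 49 of the 57 cilium genes and 10826 genes of the table. The first 2 are the cilium genes that passed the test of expression, Cfap70 and Efcab3. Ift172 and Cfap20 are shown beside them as the Ift and Cfap genes of this set with the fold change nearest to 0. The 250 bases before the start are printed 5′ to 3′ on the strand of the gene, with each CpG, the pair of letters that DNMT1 methylates, in capitals. Cfap70 lies at chr14:20452226-20452475 on the minus strand, Efcab3 at chr11:105091969-105092218 on the plus strand, Ift172 at chr5:31291115-31291364 on the minus strand and Cfap20 at chr8:95434870-95435119 on the minus strand.
Cfap70: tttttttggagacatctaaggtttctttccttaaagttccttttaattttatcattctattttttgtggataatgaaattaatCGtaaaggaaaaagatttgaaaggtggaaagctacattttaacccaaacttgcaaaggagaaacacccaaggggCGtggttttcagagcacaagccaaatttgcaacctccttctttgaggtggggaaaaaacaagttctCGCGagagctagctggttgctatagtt
Efcab3: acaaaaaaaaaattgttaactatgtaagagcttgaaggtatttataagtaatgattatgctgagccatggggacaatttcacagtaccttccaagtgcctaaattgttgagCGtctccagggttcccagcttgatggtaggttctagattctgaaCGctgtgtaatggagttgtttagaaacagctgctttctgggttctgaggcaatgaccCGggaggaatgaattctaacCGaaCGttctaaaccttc
Ift172: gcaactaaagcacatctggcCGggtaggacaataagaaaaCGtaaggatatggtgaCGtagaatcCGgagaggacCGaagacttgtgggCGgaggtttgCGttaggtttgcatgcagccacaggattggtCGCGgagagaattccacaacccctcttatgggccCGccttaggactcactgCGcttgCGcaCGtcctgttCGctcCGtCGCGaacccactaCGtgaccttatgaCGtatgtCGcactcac
Cfap20: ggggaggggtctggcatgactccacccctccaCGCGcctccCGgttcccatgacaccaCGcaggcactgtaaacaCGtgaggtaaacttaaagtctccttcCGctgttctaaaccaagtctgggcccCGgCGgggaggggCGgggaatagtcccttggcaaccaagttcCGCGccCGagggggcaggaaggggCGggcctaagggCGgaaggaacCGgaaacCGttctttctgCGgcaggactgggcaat

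In these 250 bases Cfap70 had 4 CpG and Efcab3 had 5, against 20 in Ift172 and 17 in Cfap20. Over the full 300-base window the ratio of CpG observed to that expected from the C and G content was 0.434 for Cfap70 and 0.48 for Efcab3, at percentiles 17.1 and 20.3 of the 10826 genes. Ift172 was at 1.12 and Cfap20 at 0.765. The median was 0.689 over the 49 cilium genes (interquartile range 0.555 to 0.861) and 0.74 over the table (0.538 to 0.893). By family the median was 0.795 for 11 Ift genes, 0.758 for 8 Bbs genes, 0.708 for 10 Cfap genes and 0.504 for 9 Dnah genes. The dynein heavy chains thus had the lowest CpG content of these 4 families.

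A ratio of 0.5, chosen after the values were seen, separated 7 cilium genes below it (Cfap70, Efcab3, Cfap300, Dnah2, Dnah7b, Dnah11 and Dnah17) from 42 at or above it. The median log2 fold change, Dnmt1KO minus WT, was 0.5 in the 7 and 0.053 in the 42. The cut lies above both genes that passed, so the 7 hold them by that choice and these medians are no independent evidence. Cfap300, Dnah2, Dnah7b, Dnah11 and Dnah17 were at 0.15, 0.50, 0.05, 0.94 and 0.18. Over the whole table, 20 of 2369 genes below 0.5 passed the test as higher (0.844%), against 15 of 8457 at or above it (0.177%). A low ratio did not go with a large fold change in every gene: Dnah17 and Dnah2 had ratios of 0.208 and 0.194 and fold changes of 0.18 and 0.50. No methylation was measured in these libraries.

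**Figure D1:**
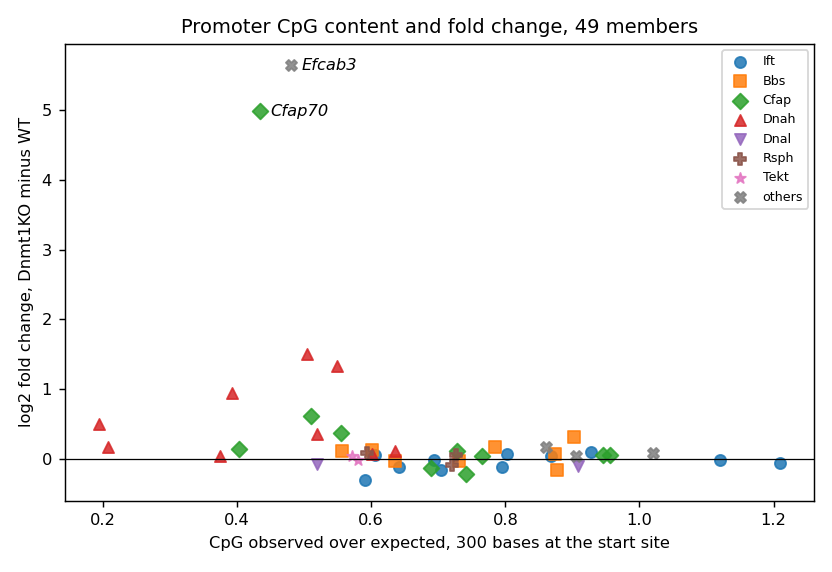
Ratio of observed to expected CpG in the 300-base promoter (horizontal axis) and log2 fold change, Dnmt1KO minus WT (vertical axis), for the 49 cilium genes with a promoter, with a symbol for each family. Cfap70 and Efcab3 stand at 4.99 and 5.65 with ratios of 0.434 and 0.48, and the other 47 genes lie between -0.30 and 1.51.

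The X-box was searched as a spaced inverted repeat with 0 to 3 bases between its arms, and also by a short form spelled GTTGCC, both on either strand. The 2 searches overlap, since many full matches contain the short form. Full matches were in 8 of the 49 promoters (16.3%), against 1.88% of all 10826, and the short form was in 21 (42.9%) against 14.8%. A match is a description of letters and not a bound site. The matches are shown for 1 site in each of the 8 genes, with the matched letters in capitals, on the strand where they were found.
Bbs1: ccaggcGTCGCCTTGGCAACcagctc
Ccno: tctgtcGTCACCGTGGCAACcgcagc
Cfap298: gttttgGTTGCCCGGGCAACagctac
Cfap44: actgcgGTTGCCATAGCAACgtccct
Cfap45: tgacgcGTTACCATAGCAACccaaga
Ift57: cctgcgGTTGCCTGGTAACggtggg
Rsph3b: ccatcgGTTGCCGAGCAACccgagg
Tekt2: gctctgGTTGCCGAGCAACcgcccc

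These 8 genes belong to 6 families or roles, from the BBSome (Bbs1) to the microtubule inner wall (Tekt2). Their median log2 fold change was 0.049, with a range of -0.13 to 0.62. The 21 genes with the short form had a median of 0.045 and the 28 without it a median of 0.082. Neither Cfap70 nor Efcab3 held the short or the full form in its window. The palindrome CTCGCGAG, looked for after the Cfap70 sequence had been read, began 29 bases before the Cfap70 start and was also in the Ift74 promoter. That is 2 of 49 cilium genes (4.08%) and 2.07% of all genes.

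The libraries held 18192629 to 25597662 reads, as recovered from the deposited log2 values. The log2 value of Dnmt1 itself averaged 15.43 ± 0.13 against 15.74 ± 0.02 in WT (SD, n = 3), a difference of -0.31 that did not pass (limma adjusted p = 0.507). Dnmt1KO replicate 1 stood apart in sex and in 1 airway gene. It held 3 reads over 4 genes of the Y chromosome against 4155 to 5207 in each of the other libraries, and 90 reads of Sox2 against 384 to 532. Lung markers were present in every library, Nkx2-1, a factor of lung endoderm, at 2252 to 4215 reads and Epcam, an epithelial adhesion gene, at 2170 to 3826 reads. Markers were measured of lung epithelium (17), mesenchyme (10), endothelium (6), neural and neuroendocrine cells (9), mesothelium (5) and red blood cells (11). None of these markers passed the test with limma or voom. In that order, 6, 1, 0, 0, 1 and 1 of them had an unadjusted limma p under 0.05, beside 4.52% of all genes. The groups did not overlap in 5, 1, 0, 0, 0 and 0 of them, beside 8.78% of all genes. All 11 red blood cell markers had positive fold changes (median 0.42), and the epithelium markers ran from -1.51 for Foxa1 to 1.58 for Sftpc. Sftpc passed with library weights (adjusted p = 0.0454) and without WT replicate 2 (0.0403), and Foxa1 passed without Dnmt1KO replicate 3 (0.000667).

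Of the 57 cilium genes, Cfap70 and Efcab3 rose in Dnmt1KO lungs, with log2 fold changes of 4.99 and 5.65, and the other 55 did not pass the test. These 2 passed limma's test as higher in Dnmt1KO (adjusted p under 0.05), beside 0.282% of the 14162 genes tested. Efcab3 was added to the set by name, and the set was chosen with earlier results of these data known. The count of 2 is therefore no independent evidence that cilium genes rose more often than other genes. No cilium gene passed as lower, beside 0.00706% of all genes (Ift27 was the 1 member at a lower value with an unadjusted p under 0.05, and voom also called 0). At an unadjusted p under 0.05 there were 7 cilium genes in either direction, beside 4.52% of all genes. In 7 the 3 Dnmt1KO values did not overlap the 3 WT values (6 higher, 1 lower), beside 8.78% of all genes.

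Positive fold changes were held by 40 of the 57 (70.2%, against 50% of all genes), a number that fell to 31 (54.4%, against 46.7%) with quantile normalization. Over the 57 the fold changes had a median of 0.063, against -5.9e-05 over all genes. In 42 genes the fold change lay within 0.2 of 0. Low expression went with positive values: of the 22 cilium genes among the 25% of the table with the lowest means, 20 were positive, against 68.7% of all genes in that range. With quantile normalization these became 12 of 22 and 42.4%. Among the 35 better expressed cilium genes 20 were positive (57.1%, against 43.7% of all genes above the lowest 25%). Their fold changes ran from -0.30 to 0.31.

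The lowest total of any gene in the table was 60 reads over the 6 libraries. Of the cilium genes, 5 (Cfap70, Efcab3, Cfap54, Dnah10 and Rsph10b) had fewer than 60 reads in the WT libraries together, and none had fewer than 60 in the Dnmt1KO libraries together. In the whole table these numbers were 325 and 201 genes. Without its Dnmt1KO reads such a gene would lie below the lowest total of the table, and the counts over measured genes do not cover cilium genes with few reads in both groups.

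**Figure D2:**
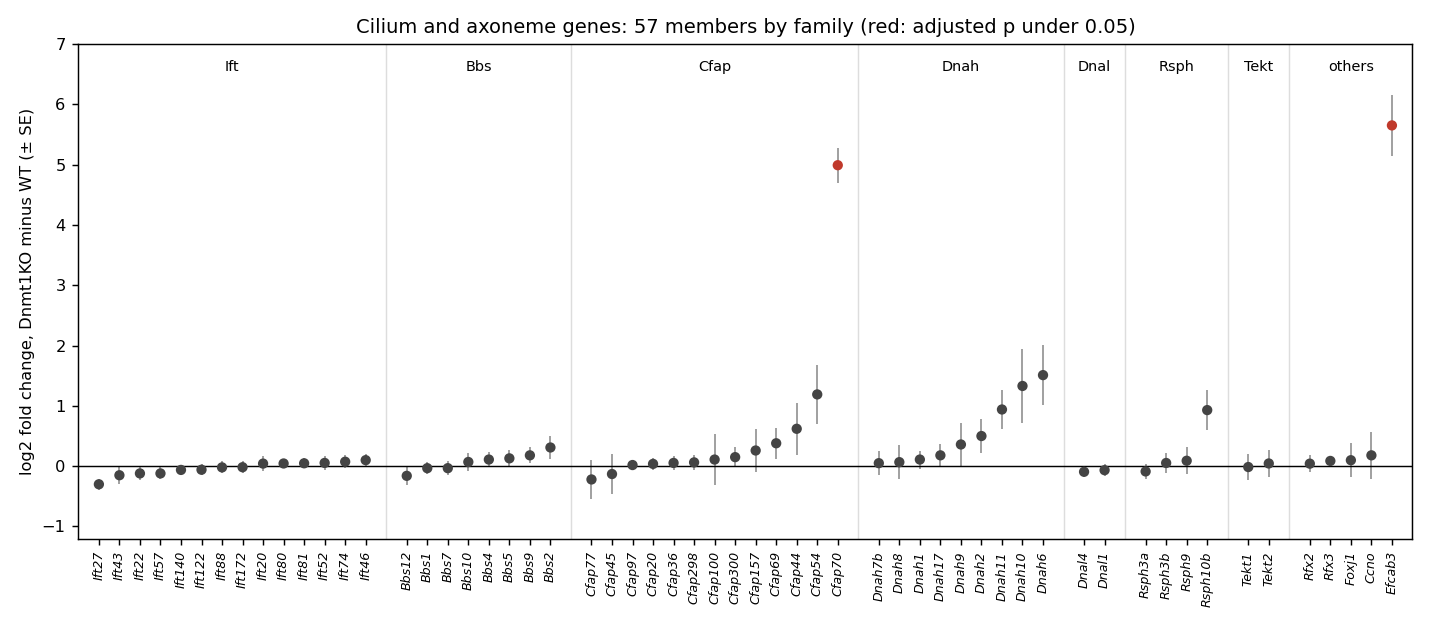
Log2 fold change, Dnmt1KO minus WT, of each of the 57 cilium genes with its standard error, grouped by family and ordered within it (others: Rfx2, Rfx3, Foxj1, Ccno and Efcab3). Cfap70 and Efcab3 (red, adjusted p under 0.05) stand at 4.99 and 5.65, Ift genes lie between -0.30 and 0.10, and Dnah genes between 0.05 and 1.51.

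Cfap70 (ENSMUSG00000039543, chromosome 14) encodes a protein bound to the outer dynein arms of motile cilia. It had 227, 257 and 462 reads in Dnmt1KO replicates 1, 2 and 3 and 14, 9 and 9 in WT replicates 1, 2 and 3. All 3 Dnmt1KO libraries were far above all 3 WT libraries, and replicate 3 was the highest. The log2 values averaged 10.60 ± 0.46 against 5.61 ± 0.24 in WT (SD, n = 3), a fold change of 4.99 ± 0.29 (SE, limma adjusted p = 0.000903). Its unadjusted p ranked 1 among all genes of the table. The ratio of scaled reads was 34.2, with an exact 95% counting interval of 24.1 to 50.3 that covers counting error only. Leaving out each library in turn gave fold changes of 4.72 to 5.13.

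In RPKM, the recovered reads divided by kilobases of exon and scaled to 1000000 reads per library, Cfap70 went from 0.107 in WT to 3.67 in Dnmt1KO (2.91 to 5.12). On chromosome 14 the measured neighbour on one side, Mrps16, had a log2 fold change of 0.035 ± 0.14. On the other side Anxa7 was above WT in all 3 Dnmt1KO libraries, at log2 values of 11.73 to 11.98 against 11.56 to 11.62. Its fold change of 0.26 ± 0.096 did not pass (limma adjusted p = 0.887), though its unadjusted value was under 0.05. None of the 3 nearest measured genes on each side passed. Fam149b, Dnajc9, Mss51 and Ppp3cb lay between -0.11 and 0.049.

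Efcab3 (ENSMUSG00000020690, chromosome 11), which encodes a protein with EF-hand calcium-binding domains, was likewise highest in Dnmt1KO replicate 3. Dnmt1KO replicates 1, 2 and 3 held 58, 55 and 143 of its reads, and WT replicates held 2, 1 and 1. The log2 values of 8.64 ± 0.70 and 2.99 ± 0.30 (SD, n = 3) gave a fold change of 5.65 ± 0.51 (SE, limma adjusted p = 0.00286). With 4 reads in WT, its size is loosely bounded: the ratio of scaled reads was 74.1 with an exact 95% counting interval of 28.6 to 274. With quantile normalization the fold change was 4.30, and leaving out each library gave 5.25 to 5.91.

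The reads listed as Efcab3 are uncertain in origin. In the GENCODE annotation, 2157 of its exon bases (74.6%) are also exon of the gene model Gm11639 on the same strand, which had no row. How the authors' counting divided such reads is not given in the sources used here. Of the 3 nearest measured genes on each side none passed. Itgb3 was at -0.17 ± 0.29 and Mettl2 at -0.13 ± 0.081. The heart gene Myl4, with 1905 reads in Dnmt1KO replicate 2 against 152 to 411 in the other 5 libraries, was at 1.43 ± 0.86 (adjusted p = 1).

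Both genes were highest in Dnmt1KO replicate 3, and so was a list of 15 measured germline genes. The summed level of that list was 149, 105 and 262 RPM (reads scaled to 1000000 per library) in Dnmt1KO replicates 1, 2 and 3, against 13.9 to 21.2 in WT. All 15 had positive fold changes and 9 passed as higher, such as Dazl and Sohlh2, beside 0.282% of all genes. Of the 15, 5 to 8 passed when 1 library was omitted, 5 with the replicate number as a block, and 2 with voom. In WT, 5 were at 0 reads in at least 1 library, and 10 had fewer than 60 reads over the WT libraries together. Without their Dnmt1KO reads those 10 would lie below the lowest total of the table. Their positive direction was thus largely fixed by being in the table. Earlier results of these data were known when that list was made, so it is no independent evidence of direction. Markers of red blood cells were also highest in replicate 3, with a sum over 11 genes of 2866 RPM against 1644 to 2117 in the other Dnmt1KO and 1183 to 1920 in the WT libraries. Markers of lung epithelium summed to 1289 there, against 945 to 1207 elsewhere. The part of these in the level of Cfap70 and Efcab3 was not tested. Without replicate 3 the fold changes were 4.72 for Cfap70 and 5.25 for Efcab3, and both passed (adjusted p = 0.00143 and 0.019).

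**Figure D3:**
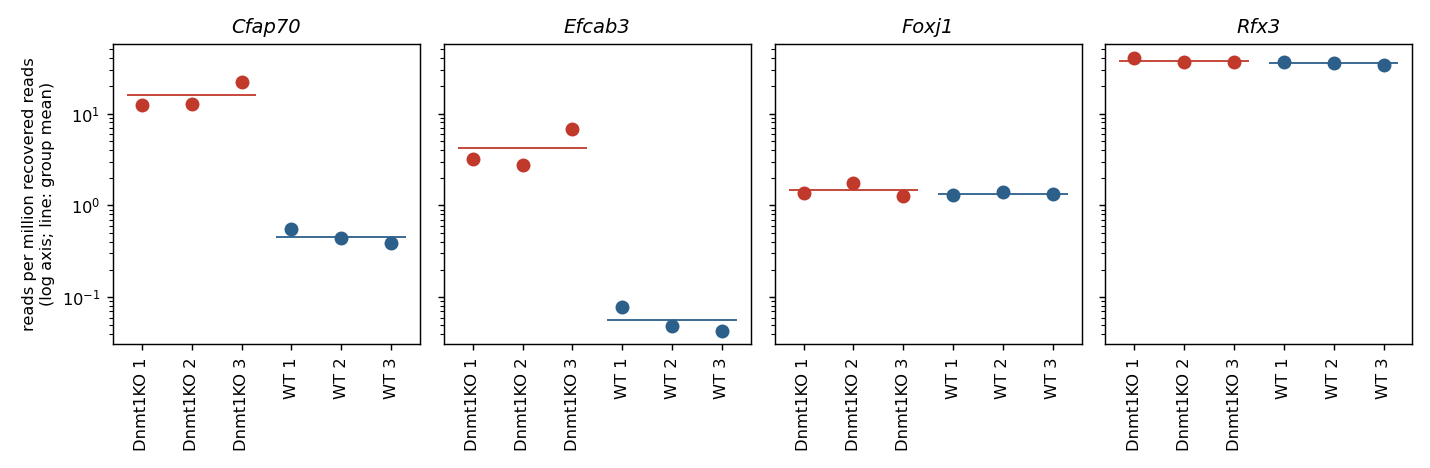
RPM, reads scaled to 1000000 per library, in each library, on a log axis, for Cfap70, Efcab3, Foxj1 and Rfx3, with a line at each group mean. Cfap70 reaches 22 in Dnmt1KO replicate 3 and stands at 0.388 to 0.547 in WT, while Foxj1 and Rfx3 overlap between the groups.

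None of the regulators of ciliated cell fate passed the test. Foxj1, the factor that drives motile cilium genes, had 25, 35 and 27 reads against 33, 29 and 31 in WT, a log2 fold change of 0.099 ± 0.28 (adjusted p = 1). Its groups overlapped, and with quantile normalization the sign turned (-0.20). At so few reads the ratio of scaled reads had an exact 95% counting interval of 0.799 to 1.47. That interval covers counting error only and does not set the smallest change that the test could detect. A change within it could go undetected, and so could a larger one.

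Rfx3, which binds the X-box in primary and motile ciliogenesis, had 740, 728 and 771 reads against 929, 725 and 791 (0.087 ± 0.089). Rfx2, its relative with a known role in sperm and multiciliated cells, had 244, 266 and 238 against 320, 267 and 255 (0.042 ± 0.14, and -0.00028 with quantile normalization). Both overlapped between groups at adjusted p = 1. Ccno, which supports the formation of many basal bodies, had 41, 45 and 125 reads against 66, 67 and 55, a fold change of 0.18 ± 0.39 in which a single library, Dnmt1KO replicate 3, was high. Without that library it was -0.28, and with quantile normalization it was -0.0055.

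Among 17 measured genes of a wider multiciliated cell list, none passed in either direction with limma or with voom, and none reached an unadjusted p under 0.05. Mcidas, a coactivator at the top of this programme, had 26, 4 and 30 reads against 13, 11 and 6 (0.82 ± 0.77), overlapping between groups. Myb, another early gene of the programme, was at -0.02 ± 0.16. Gmnc, Foxn4, Trp73 and Deup1 had no row.

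Levels in WT lungs differed between families. In RPKM, the 14 Ift genes ran from 3.91 to 36.2 with a median of 9.72, Ift20 being highest and Ift80 lowest. The 8 Bbs genes ran from 2.19 to 7.16 with a median of 3.1. The 9 measured dynein heavy chains ran from 0.0456 to 1.45 with a median of 0.231, Dnah1 being highest and Dnah10 lowest. Other genes of motile cilia overlapped the Bbs range: Tekt1 was at 5.89, Tekt2 at 2.91, Rsph3a at 4.33, Rsph9 at 2.81 and Rsph3b at 2.78, with Rsph10b lower at 0.239. The light chains Dnal1 and Dnal4 were at 4.64 and 17.6. Foxj1 was at 0.513.

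The Cfap family, named for location and not for function, fell into 2 ranges. Cfap298, Cfap20, Cfap36, Cfap300 and Cfap97 stood between 7.15 and 15.9. The other 8 stood between 0.0546 for Cfap54 and 0.617 for Cfap77. Neighbours in these orders often had overlapping library ranges. Exon lengths came from the GRCm38 annotation and not from the build of the counts, so these levels are approximate.

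**Figure D4:**
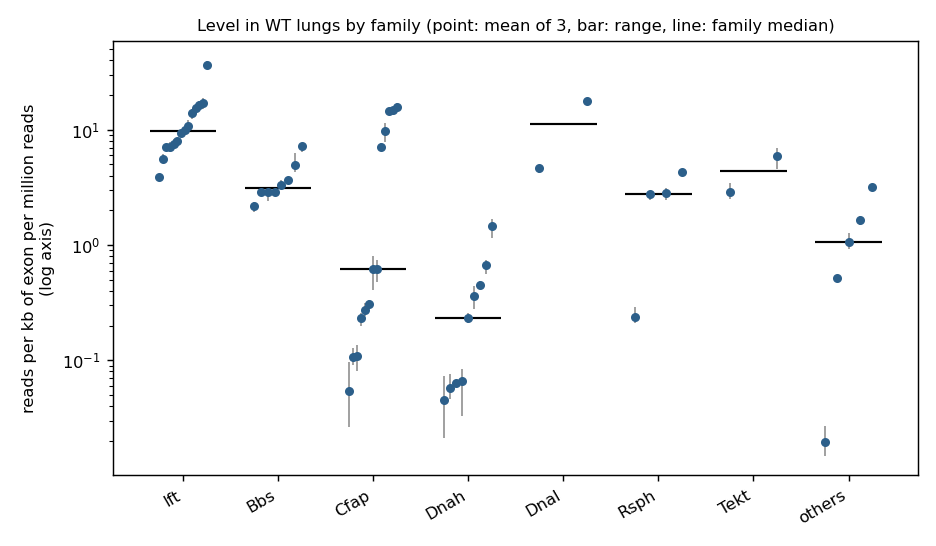
Level of each cilium gene in WT lungs, in RPKM on a log axis, by family (point: mean of 3 libraries, bar: their range, line: family median; others: Foxj1, Rfx2, Rfx3, Ccno and Efcab3). Ift genes have a median of 9.72 and Dnah genes one of 0.231, and Efcab3 is lowest at 0.0196.

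In the Ift family no gene passed with limma or voom, 6 of 14 fold changes were positive, and the median log2 fold change was -0.018. Ift172, a core subunit and the gene with the most reads of all 57, had 1813, 1865 and 1742 reads against 2579, 1704 and 2133 (-0.017 ± 0.10). Ift46, another train subunit, had the largest value at 0.10 ± 0.11. Ift27, a small GTPase that links the trains to the BBSome, had 384, 447 and 489 reads against 711, 527 and 641. Its scaled values were below WT in all 3 Dnmt1KO libraries, 11.07 to 11.21 against 11.38 to 11.47 as log2 values. The fold change of -0.30 ± 0.095 did not pass (adjusted p = 0.664), and omitting 1 library at a time gave -0.33 to -0.26. Of 11 measured genes of this machinery under other symbols, such as Wdr19 and Ttc21b, none passed or reached an unadjusted p under 0.05 (median -0.07, range -0.13 to 0.17). The 10 measured motor genes gave the same count of 0 (median 0.0062, range -0.26 to 0.47). Kif17 had the smallest p of them, and Kif3a was at 0.075 and Dync2h1 at -0.0054.

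The Bbs family also held no gene past the test, nor any at an unadjusted p under 0.05. Its median was 0.088, falling to 0.023 with quantile normalization. Bbs2 had the largest value: 318, 518 and 391 reads against 371, 292 and 479 (0.31 ± 0.19), with overlapping groups. Bbs12, a chaperonin-like protein that helps assemble the BBSome, was lowest at -0.16 ± 0.15. Bbs5 was counted as not overlapping by a margin below rounding, 9.60 to 9.64 against 9.42 to 9.60 as log2 values (0.13 ± 0.14), and the count of such cilium genes was 6 with median centring. Bbs1, the BBSome subunit with the most reads of the family, was at -0.033 ± 0.10. Of 13 partners of the BBSome and 21 transition zone genes none passed or reached an unadjusted p under 0.05, with medians of -0.035 and 0.03 and ranges of -0.16 to 0.19 and -0.23 to 0.20.

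Outside Cfap70, no Cfap gene passed. Cfap54, a central pair protein, had 37, 25 and 35 reads against 15, 8 and 33, so WT replicate 3 lay within the Dnmt1KO range (1.19 ± 0.49, adjusted p = 1). The value ran from 0.80 without WT replicate 2 to 1.69 without WT replicate 3. Cfap44, named here after its values were seen, had 44, 18 and 26 reads against 29, 14 and 21. Cfap100, with 26, 12 and 28 against 26, 22 and 19 (0.11 ± 0.42), was at -0.39 with quantile normalization. Cfap77 was lowest at -0.22 ± 0.32, with a range of -0.40 (without WT replicate 3) to -0.059 (without Dnmt1KO replicate 3), -0.49 with quantile normalization and -0.048 with library weights, and the abundant Cfap20, a protein of ciliary microtubules, was at 0.038 ± 0.095. In Cfap298, 44.2% of the exon bases overlap a gene model on the opposite strand. Whether the counting used strand is not given in the sources used here, so reads of a gene and its antisense partner cannot be told apart.

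The dynein heavy chains, the motors of the outer and inner arms, all had positive fold changes, 9 of 9 (7 of 9 with quantile normalization), and none passed with limma or voom. The median was 0.36, and 0.097 with quantile normalization. Dnah6, an inner arm heavy chain, had 75, 40 and 34 reads against 28, 23 and 10 (1.51 ± 0.50, adjusted p = 0.705). Dnah11, an outer arm heavy chain, had 47, 29 and 33 against 24, 19 and 21 (0.94 ± 0.33, adjusted p = 0.817). In both, the scaled Dnmt1KO values lay above all WT values. Of the Dnah11 exon bases, 4.4% overlap the measured gene Cdca7l on the opposite strand. Whether the counting used strand is not given, so reads of Dnah11 and Cdca7l in that stretch cannot be told apart. Dnah10, named here after its values were seen, had 64, 32 and 18 against 30, 7 and 16 (1.33 ± 0.61, adjusted p = 1) and overlapped. Its value was 0.80 without Dnmt1KO replicate 1, 0.89 without WT replicate 2, 1.81 without Dnmt1KO replicate 3 and 0.87 with quantile normalization.

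No better expressed heavy chain passed either, and their groups overlapped. Dnah2 had 205, 137 and 117 reads against 168, 85 and 125 (0.50 ± 0.28, adjusted p = 1), with Dnmt1KO replicate 1 highest. Dnah17 and Dnah8 were at 0.18 ± 0.18 and 0.067 ± 0.28. Dnah1 had 394, 431 and 385 reads against 510, 308 and 507 (0.11 ± 0.15). Dnah7b was at 0.05 ± 0.20, and its reads may be divided with Dnah7a and Dnah7c, near-identical copies without a row. Dnah9, the outer arm chain with the fewest reads of the family, had 26, 25 and 19 against 31, 17 and 17 (0.36 ± 0.36, and -0.041 with quantile normalization).

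Of the 9 heavy chains, 8 were highest in Dnmt1KO replicate 1 and 1 in WT replicate 3. Relative to the WT mean, the family median was 0.64, 0.36 and 0.063 in Dnmt1KO replicates 1, 2 and 3 and 0.16, -0.1 and -0.023 in WT replicates 1, 2 and 3. Without Dnmt1KO replicate 1 the family median fold change fell from 0.36 to 0.21 and 7 of 9 were positive. Omitting WT replicate 3 gave 0.22, omitting Dnmt1KO replicate 3 gave 0.54, and omitting WT replicate 1 gave 0.56. Long genes with few reads moved in a like order. The 186 genes both among the 25% with the lowest means and among the 10% with the longest exons had medians of 0.39, 0.36 and -0.063 in Dnmt1KO and 0.30, -0.26 and -0.026 in WT. Their part in the heavy chain values, and that of the difference in sex of replicate 1, was not tested.

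**Figure D5:**
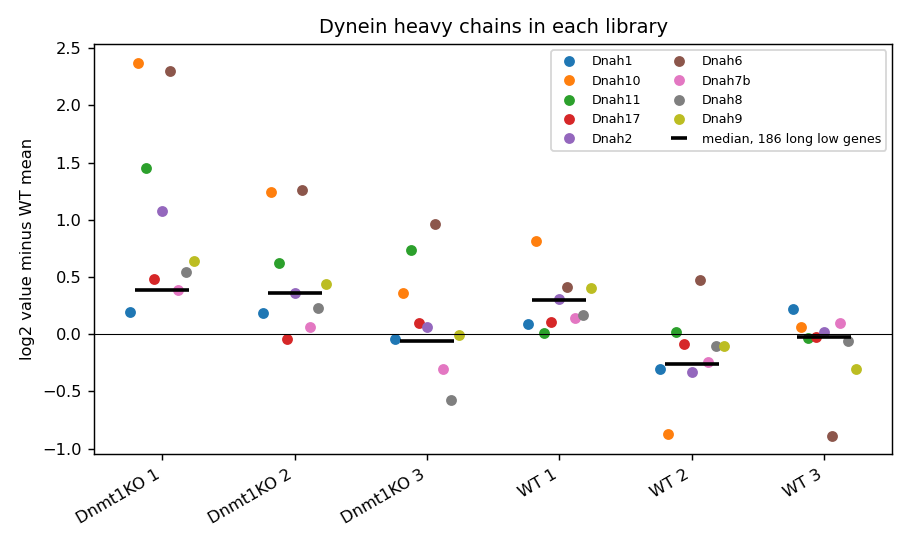
Log2 value minus the WT mean for each of the 9 dynein heavy chains in each library (points), with the median of 186 long genes of low expression (bars). In Dnmt1KO replicate 1 the family median is 0.64 and the bar 0.39, and in Dnmt1KO replicate 3 they are 0.063 and -0.063.

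The light chains Dnal1 and Dnal4 were at -0.066 ± 0.098 and -0.093 ± 0.087. Of the radial spoke genes, Rsph10b had 30, 26 and 29 reads against 23, 14 and 15, without overlap after scaling (0.93 ± 0.33, adjusted p = 0.817). It shares 10.5% of its exon bases with the model Gm42421 and 2.7% with the measured gene Pms2, both on the same strand. Rsph3a was at -0.087 ± 0.13, and it and Rsph3b are near-identical copies whose reads may be divided between them. Tekt1 and Tekt2, filament proteins of the doublet microtubules, were at -0.014 ± 0.21 and 0.045 ± 0.22.

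Of the listed dynein arm and assembly genes under other symbols 15 of 33 were measured, with none past the test or at an unadjusted p under 0.05, and a median of -0.047. Ttc25, a docking factor of outer arms, was highest at 0.79 ± 0.40. In the list of central pair and radial spoke genes, 7 of 17 were measured, none passed with limma or voom, and only Hydin had an unadjusted p under 0.05. Hydin, a central pair protein and a very long gene, had 77, 43 and 35 reads against 38, 13 and 19 (1.39 ± 0.45, adjusted p = 0.684), with Dnmt1KO replicate 1 highest. Without that library it was 1.01. Its fellow central pair gene Spag17 had 33, 30 and 51 reads against 27, 13 and 42 (0.79 ± 0.42), with overlap.

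Hedgehog signalling acts through the primary cilium, and 13 of 13 listed genes of its ciliary steps were measured. Ptch1, the receptor and a target of the pathway, was lower at -0.63 ± 0.084 (limma adjusted p = 0.0258), a call lost with the replicate number as a block (0.0532), without the 25% of genes with the lowest mean (0.138), without trend and robust moderation (0.102) and without Dnmt1KO replicates 1 or 2 or WT replicates 2 or 3 (0.0822 to 0.174). The other 12 did not pass. Of the 13, 11 had negative fold changes, with a median of -0.15 and a range of -0.84 to 0.02. An unadjusted limma p under 0.05 was reached by 3, beside 4.52% of all genes. In 6 the groups did not overlap, with Dnmt1KO lower, beside 565 of the 14162 genes of the table. Hhip, a Hedgehog-binding protein and target, was lowest at -0.84 ± 0.15 (adjusted p = 0.0795) and passed with library weights (0.0152) and without WT replicate 1 (0.0154). The target Gli1 was at -0.33 ± 0.071 (adjusted p = 0.187). Outside this list, Shh, the gene of a Hedgehog ligand and the one that controls the Cre, was at -0.98. It did not pass (limma adjusted p = 0.213), and omitting 1 library at a time gave -1.18 to -0.73. The part of Shh in the lower values of these genes was not tested. That of the Cre at Shh cannot be told apart from that of losing Dnmt1. Among the ciliary components, Smo was at -0.15 ± 0.089, Kif7 at -0.088 ± 0.078 and Evc at -0.13 ± 0.077.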

How the data were processed

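RNA was measured in 3 Dnmt1KO and 3 WT libraries. The authors deposited 1 table per library whose values, from 1 to 18.4, are log2 expression under the name SIGNAL in the file headers. STAR, limma and mm9 are named in the submitters' processing notes, and no source used here gives the counter, strand use, annotation or gene filter. Raising 2 to each value gave whole reads plus 0.5 times a library constant, for 100% of genes within 1e-06 reads. The cilium genes and the other lists were chosen with earlier results of these data known.

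Symbols, chromosomes, exon lengths and overlaps came from GENCODE on GRCm38, which named 13967 of 14162 identifiers. Its coordinates were not set against the mm9 data. Promoters came from RefSeq on GRCm38.p6. With limma 3.58.1 in R 4.3.3, genotype was the only term, with trend and robust moderation and Benjamini-Hochberg adjustment over all genes. The fit was tested on simulated counts with the same dispersion for every gene. That test does not show how the fit behaves where the spread differs between genes. Ratios of scaled reads carry exact Clopper-Pearson 95% intervals (scipy 1.17.1). Genes named were the single genes, those at an unadjusted p under 0.05, those with at most 10 reads in each WT library, and each family's extremes in fold change and reads. From the other lists, genes were named as examples after their values were seen, and the gene with the smallest p was not named for every list. Other settings tried were a block for the replicate number, omission of the 25% of genes with the lowest mean, quantile normalization, median centring, scaling to read totals, no trend or robust moderation, library weights, voom on the recovered reads, and omission of each library.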

Additional observations from a re-analysis of the deposited data

How the results depend on the processing

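Cfap70 and Efcab3 passed under every alternative in which they were tested, and no cilium gene was called lower under any. Both are among the 25% of genes with the lowest mean, so with those left out 0 cilium genes and 0 genes of the table passed with limma (1 and 308 had an unadjusted p under 0.05), 20 of 35 cilium genes were positive and 1 did not overlap. The 41 genes called over the whole table became 26 with the replicate block, 69 with library weights, 25 with voom and 15 to 56 as each library was left out (15 without Dnmt1KO replicate 1, 25 without Dnmt1KO replicate 2 or WT replicate 3). The replicate block changed no call among the cilium genes. Its numbers share no stated source, and deviations of same-numbered libraries correlated at -0.003, -0.18 and 0.306. Cilium genes without overlap, 7 in all 6 libraries, numbered 9 to 16 with 1 library fewer, which by construction leaves fewer values to overlap. The median log2 fold change of 0.063 became 0.017 with quantile normalization; the cause was not tested.

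For 28 named genes, 345 of 379 values under 14 alternatives kept their sign and their side of the threshold, and the other 34, over 12 genes, changed sign. With quantile normalization Ccno was -0.0055, Cfap100 -0.39, Dnah9 -0.041, Foxj1 -0.20, Ift172 0.0046, Rfx2 -0.00028 and Tekt2 -0.065. Tekt1 was 0.0010 with read totals and 0.020 with voom. With library weights Cfap100 was -0.039, Cfap20 -0.015 and Ift172 0.012. As each library was left out, the value ran from -0.11 to 0.0095 for Bbs1, from -0.28 to 0.42 for Ccno, from -0.12 to 0.50 for Cfap100, from -0.028 to 0.098 for Cfap20, from -0.039 to 0.22 for Dnah1, from -0.12 to 0.23 for Dnah7b, from -0.029 to 0.19 for Foxj1, from -0.081 to 0.055 for Ift172, from -0.034 to 0.12 for Rfx2, from -0.19 to 0.11 for Tekt1 and from -0.15 to 0.17 for Tekt2. For Foxj1 the counting interval of the read ratio, 0.799 to 1.47, includes 1. For Dnah6 it was 2.09 to 3.87, and the SD between libraries was 0.70 in Dnmt1KO and 0.77 in WT.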
